A study of Drosophila melanogaster with 8 samples.

Results

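Vmat, Dh31-R, Rdl, nrv3, trpl, CCHa1-R, nAChRbeta3, Or2a and ppk13 encode membrane proteins that are best known from neurons and sense cells. They were compared between wild type (WT) and CG9005 mutant macrophages of Drosophila melanogaster embryos. These 9 genes of the 17494 listed were picked by name because their levels differed between the genotypes in either direction, and all 9 are among the 7827 tested. The difference itself is therefore a description here, and no p-value is given for it. The libraries came from stage 11 embryos of both genotypes kept at 29°C, from which mCherry-labelled macrophages were sorted by flow cytometry. There were 4 WT and 4 CG9005 mutant libraries, with 15782570 to 18942786 reads recovered in each. Both groups carry the same fluorescent label, and the sources used here name neither the CG9005 allele nor the driver of the label. CG9005 mRNA was at 87.8 ± 18.4 TPM in WT against 89.1 ± 12.2 TPM in mutant libraries (SD over 4 libraries each, as for all means below; TPM is a level scaled for transcript length and library size), so it does not check the labels.

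Signalling between neurons rests on a few classes of membrane protein. Vesicular transporters fill vesicles with transmitter, G protein coupled receptors read peptides and amines, and ligand-gated channels turn a transmitter into a current. The sodium-potassium pump keeps up the ion gradients that such currents use. Sense cells add odorant receptors, TRP channels and the degenerin channels of the pickpocket (ppk) family. Macrophages of the fly embryo are blood cells that arise in the head mesoderm, spread through the embryo and take up dying cells. Markers of macrophages, neurons, glia and neuroblasts are therefore given beside the members.

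Of the 9 genes, Vmat, Dh31-R, nrv3, Rdl and ppk13 were higher in the mutant, and trpl, CCHa1-R, Or2a and nAChRbeta3 were lower. For each of the 9, every library of one genotype lay above every library of the other, which held for 7.77% of the 7827 genes tested (3.25% higher and 4.52% lower in the mutant). All 9 also had an adjusted p under 0.05 with limma, which 1.67% of tested genes had (0.882% higher and 0.792% lower). The genes were chosen for this contrast, so nothing is read from either count. The count depended on the libraries. It was 5 of 9 without mutant replicate 2, and 4 of 9 with limma's voom on recovered reads. Over all genes 131 were called, against 72, 74, 86, 73 and 71 without WT replicates 1, 2 and 4 and mutant replicates 2 and 4 in turn. Only nAChRbeta3 reached 1 TPM in all libraries of both groups. The other 8 met the test's minimum of 1 TPM in 4 libraries through the group in which they were high.

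**Figure D1:**
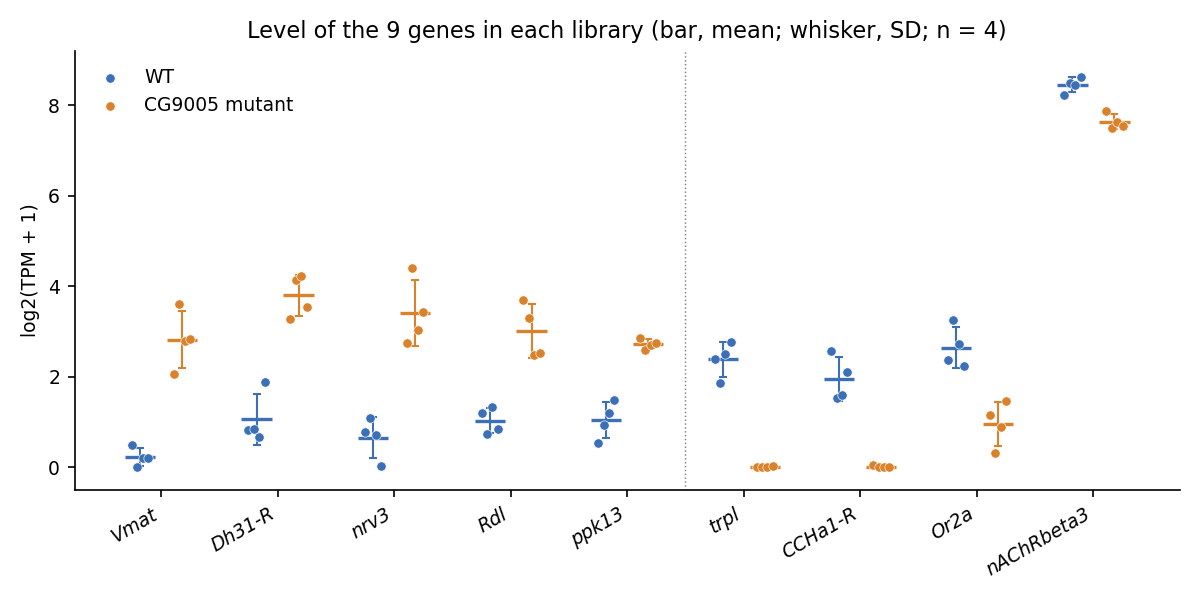
Level of each of the 9 genes on the log2(TPM + 1) axis, with 1 point per library, the mean as a bar and the SD as a whisker (n = 4 WT in blue, n = 4 CG9005 mutant in orange). The 5 genes left of the dotted line were higher and the 4 on the right lower in the mutant, and in none do the groups overlap.

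Vmat, the vesicular monoamine transporter that loads dopamine, serotonin, octopamine and histamine into vesicles, was close to absent in WT. It was at 0.397, 0, 0.159 and 0.149 TPM in WT replicates 1 to 4 and at 3.18, 11.2, 5.89 and 6.1 TPM in the mutant replicates. The WT values rest on 47, 0, 14 and 15 reads, and the mutant values on 334, 1177, 657 and 693. A library with 0 reads allows up to 3, which is 0.0271 TPM for Vmat in WT replicate 2. The means were 0.176 ± 0.164 TPM in WT against 6.60 ± 3.35 TPM in mutant libraries, a 37.4-fold difference. On the log2(TPM + 1) scale, where differences of low genes come out too small, it was 2.60. The authors' deposited table gives 6.28 as its log2 fold change. Mutant replicate 2 was the highest mutant library and replicate 1 the lowest, still far above every WT library. In bulk libraries a larger number of cells with a transcript and more of it per cell cannot be told apart, for Vmat as for all the genes below.

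Of 11 other genes of monoamine synthesis and transport, 3 passed the minimum and none was called with limma (1.67% of all genes were), while all 3 had an unadjusted p under 0.05, as 12.1% of all tested genes did (950 of 7827). They were DAT, the dopamine transporter of the cell surface, Hn, a phenylalanine hydroxylase, and Pu, the GTP cyclohydrolase that starts the synthesis of the hydroxylases' cofactor. DAT had 0 reads in 3 WT libraries, 3.15 TPM in WT replicate 3, and 3.98, 4.13, 3.84 and 4.94 TPM in the mutant (log2 difference 1.87, 95% interval 0.82 to 2.91, limma adjusted p = 0.0915). The groups did not overlap for DAT, and it passed the threshold without WT replicate 3 (limma adjusted p = 0.00755). Hn was at 1.76, 2.81, 2.79 and 1.53 TPM in WT, against 7.84, 16.6, 1.31 and 14.4 TPM in mutant libraries, so that mutant replicate 3 lay below every WT library (limma adjusted p = 0.325, and 0.0170 without that library). Pu was at 3.90 ± 2.27 and 9.11 ± 4.21 TPM (limma adjusted p = 0.388). Of the enzymes of amine synthesis below the minimum, ple and Trh stayed near 0 in both groups. ple, the tyrosine hydroxylase, was at 0.204 ± 0.302 TPM in WT against 0.183 ± 0.197 TPM in mutant libraries, and Trh, the neuronal tryptophan hydroxylase, at 0.103 ± 0.119 and 0.0988 ± 0.139 TPM. Other synthesis enzymes, also below the minimum and with overlapping groups, went both ways. Ddc was at 0.309 ± 0.411 TPM in WT against 0.938 ± 0.618 TPM in mutant libraries, and Tbh at 0.601 ± 0.394 and 1.31 ± 0.578 TPM. Tdc2 had 0 reads in WT and 38 in the mutant, and Tdc1 had 52 and 2. The serotonin transporter gene SerT had 0, 5, 10 and 0 reads in WT replicates 1 to 4 and 0 reads in every mutant library. VAChT, VGlut and VGAT, which load acetylcholine, glutamate and GABA into vesicles, stayed too low to test, their sum being 0 to 0.405 TPM in WT, against 0.692 to 1.30 TPM in mutant libraries. Summed over the 11 monoamine genes, the level was 2.36 to 13.2 TPM in WT, against 11.6 to 34.0 TPM in mutant libraries, with overlap.

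nrv3 encodes a beta subunit of the sodium-potassium pump that is prominent in the nervous system. It was at 0.721, 1.14, 0.638 and 0.0169 TPM in WT, against 5.72, 20.3, 7.15 and 9.75 TPM in mutant libraries. WT replicate 4 held 1 read, and mutant replicate 2 was the highest, as it was for Vmat. The means were 0.629 ± 0.463 and 10.7 ± 6.57 TPM, a 17.0-fold difference and 2.75 on the log2 scale. The pump's other subunits did not differ detectably. The alpha subunit gene Atpalpha was at 46.8 ± 8.80 TPM in WT against 44.4 ± 8.10 TPM in mutant libraries (log2 difference −0.08, 95% interval −0.50 to 0.34, limma adjusted p = 0.928). The beta subunit genes nrv1 and nrv2 were at 26.8 ± 6.56 and 17.5 ± 4.42 TPM in WT and at 26.4 ± 12.0 and 14.4 ± 4.18 TPM in the mutant (limma adjusted p = 0.956 and 0.763). nrv3 thus made up 0.0418% to 3.32% of the summed TPM of nrv1, nrv2 and nrv3 in WT libraries and 8.31%, 33.3%, 17.9% and 26.6% in mutant replicates 1 to 4. Of 7 other genes in the pump list 5 were tested, all 5 were below 0, and none was called with limma. Of all 7827 tested genes 4563 were below 0. CG5250, 1 of these 5, had an unadjusted p under 0.05 (8.65 TPM in WT, 4.49 TPM in the mutant, limma adjusted p = 0.372), and CG11703 was at 1.24 ± 0.619 and 0.598 ± 0.746 TPM (limma adjusted p = 0.675).

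**Figure D2:**
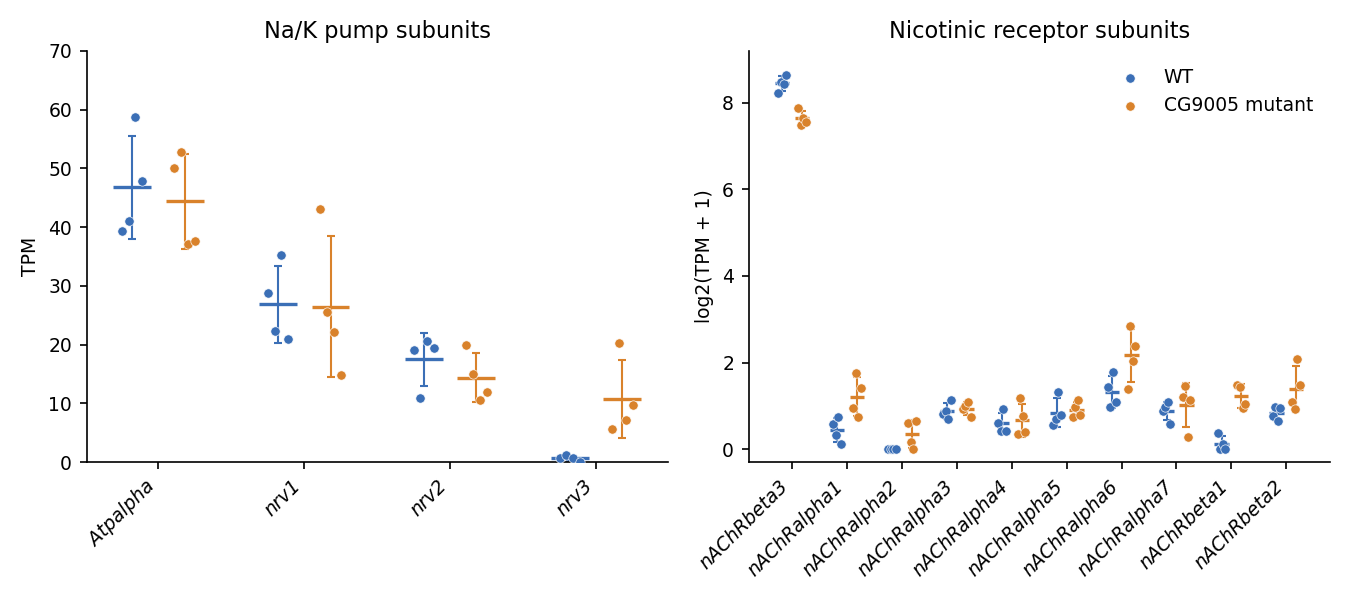
Left, TPM of sodium-potassium pump subunits, and right, log2(TPM + 1) of the 10 nicotinic receptor subunits, with 1 point per library, mean bars and SD whiskers (n = 4 WT in blue, n = 4 CG9005 mutant in orange). nrv3 is near 0 in WT and between 5.72 and 20.3 TPM in the mutant beside overlapping groups for the other pump genes, and nAChRbeta3 lies far above every other nicotinic subunit in both groups.

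Dh31-R encodes a G protein coupled receptor of the calcitonin receptor family that is activated by the peptide hormone Dh31. It was at 0.775, 0.806, 0.589 and 2.68 TPM in WT, against 8.69, 16.6, 17.6 and 10.7 TPM in mutant libraries. WT replicate 4 stood above the other WT libraries and well below the lowest mutant library. The means were 1.21 ± 0.982 TPM on 203 reads in all and 13.4 ± 4.38 TPM on 2356 reads, an 11.1-fold difference and 2.74 on the log2 scale. The ligand gene Dh31 was at 0.107 ± 0.213 TPM in WT against 0.283 ± 0.300 TPM in mutant libraries, on at most 10 reads in a library.

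CCHa1-R encodes the receptor of the peptide CCHamide-1 and moved the other way. It was at 4.92, 1.89, 2.02 and 3.33 TPM in WT, on 189, 68, 58 and 109 reads. In the mutant it had 1 read in replicate 1 (0.0293 TPM) and 0 reads in replicates 2, 3 and 4, which allows up to 0.0880, 0.0829 and 0.0812 TPM. The rate per library was 441-fold higher in WT, with an exact interval of 78.8 to 17470 at the 95% level that covers counting error only. The ligand gene CCHa1 was listed at 0 in every library. CCHa2-R, the receptor of the related peptide CCHamide-2, had reads only in WT replicate 3 (0.251 TPM) and mutant replicate 3 (0.323 TPM). Of 36 other peptide hormone receptor genes 27 stayed under 1 TPM in every library and 1 was tested. That gene, CCKLR-17D3, a receptor of the sulfakinin peptides, was at 9.57 ± 2.24 TPM in WT against 6.41 ± 1.78 TPM in mutant libraries (log2 difference −0.52, limma adjusted p = 0.484).

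Rdl encodes a subunit of the GABA-gated chloride channel, the target of cyclodiene insecticides. It was at 1.29, 0.670, 1.5 and 0.807 TPM in WT, against 12.0, 8.85, 4.59 and 4.78 TPM in mutant libraries, where replicates 1 and 2 were higher than 3 and 4. The means were 1.07 ± 0.391 and 7.55 ± 3.55 TPM, a 7.08-fold difference and 1.98 on the log2 scale. The related subunit gene Lcch3 stayed low, at 0.793 ± 0.895 TPM in WT against 1.07 ± 0.606 TPM in mutant libraries. Grd had at most 6 reads in a library.

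nAChRbeta3, annotated as a nicotinic acetylcholine receptor subunit, had by far the highest level of the 9 on the TPM scale. It was at 299, 358, 346 and 395 TPM in WT, against 234, 178, 198 and 186 TPM in mutant libraries. The means were 350 ± 39.6 and 199 ± 25 TPM, 1.76-fold lower in the mutant and −0.81 on the log2 scale, the smallest difference among the 9. The other 9 nicotinic subunit genes together held 4.89 to 7.95 TPM in WT, against 9.16 to 16.3 TPM in mutant libraries, so nAChRbeta3 made up 97.8% to 98.8% and 91.6% to 96.2% of the family. The level needs a caution from the annotation. All 1532 exon bases of nAChRbeta3 (chromosome 2L, 545129 to 547096, plus strand, BDGP6) lie within exons of Ets21C, a transcription factor gene on the minus strand. Ets21C itself held only 39 to 216 reads in a library (2.20 ± 0.942 TPM in WT against 1.03 ± 0.495 TPM in mutant libraries, limma adjusted p = 0.526). The reads given to nAChRbeta3 were therefore not also given to Ets21C, and 92 of 125 genes whose exons are wholly covered on the other strand held reads. The strand setting of the counting is not given in the sources used here, and which gene the reads came from was not tested.

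Among the other ligand-gated channels of the same superfamily, 3 of 20 passed the minimum and none was called with limma, with 2 of the 3 at an unadjusted p under 0.05 (12.1% of all tested genes). nAChRalpha6 was at 1.56 ± 0.667 TPM in WT against 3.78 ± 1.91 TPM in mutant libraries (limma adjusted p = 0.393), CG7589 at 9.64 ± 1.44 and 5.96 ± 1.48 TPM (limma adjusted p = 0.346), and nAChRalpha7 at 0.862 ± 0.267 and 1.12 ± 0.649 TPM (limma adjusted p = 0.936). The groups of CG7589, lower in the mutant, did not overlap (7.91 to 11.1 TPM in WT, 4.07 to 7.63 TPM in the mutant). Nor did those of nAChRalpha1 and nAChRbeta1, which were below the minimum and higher in the mutant. The share of 7.77% of genes without overlap is over tested genes, so it does not cover these subunits. nAChRbeta1 was at 0.301, 0, 0.0930 and 0 TPM in WT, against 1.80, 1.72, 0.933 and 1.06 TPM in mutant libraries, and nAChRalpha1 at 0.375 ± 0.254 and 1.41 ± 0.767 TPM.

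trpl encodes a cation channel of the TRPC class that carries part of the light response of photoreceptors. It was at 4.26, 2.64, 4.66 and 5.80 TPM in WT, on 241, 140, 197 and 280 reads. In the mutant 1 read was found in replicate 4 (0.0184 TPM) and none in the other 3 libraries. The rate was 893-fold higher in WT, with an exact 95% interval of 160 to 35310 for counting error only. Its partner channel genes trp and Trpgamma had reads in 1 WT library each, 13 and 18, and Trpgamma also in mutant replicate 2 (26 reads). Of 12 other TRP genes 1 was tested, Trpm (1.15 ± 0.741 and 1.10 ± 0.348 TPM, limma adjusted p = 0.989). Of 13 other phototransduction genes 4 were tested and none was called, nor had any an unadjusted p under 0.05. norpA, the phospholipase C of the pathway, was at 2.04 ± 0.828 and 1.76 ± 0.755 TPM (limma adjusted p = 0.927), rdgA at 2.01 ± 1.33 and 2.16 ± 1.13 TPM (limma adjusted p = 0.960), and rdgB at 0.926 ± 0.168 and 1.02 ± 0.456 TPM (limma adjusted p = 0.976).

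Or2a encodes an odorant receptor. It was at 4.18, 8.47, 5.60 and 3.69 TPM in WT, against 1.22, 0.245, 0.864 and 1.75 TPM in mutant libraries, on 358 and 70 reads in all. The means were 5.49 ± 2.15 and 1.02 ± 0.633 TPM, 5.37-fold lower in the mutant and −1.69 on the log2 scale. Orco, the coreceptor that odorant receptors need at the cell surface, had reads only in mutant replicate 4 (14 reads). Of 59 other odorant receptor genes 37 had 0 reads in every library and 2 were tested, neither called. Or71a was at 1.79 ± 1.34 and 0.674 ± 0.646 TPM and Or43b at 2.22 ± 0.934 and 2.16 ± 1.21 TPM (limma adjusted p = 0.676 and 0.976).

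ppk13 belongs to the pickpocket channels, sodium channels of the degenerin family. It was at 0.454, 0.922, 1.28 and 1.81 TPM in WT, on 10 to 34 reads, and at 6.20, 5.01, 5.50 and 5.67 TPM in the mutant, on 98 to 121 reads. The mutant libraries were close together, with an SD of 0.488 TPM. The means were 1.12 ± 0.573 and 5.59 ± 0.488 TPM, a 5.01-fold difference and 1.68 on the log2 scale. Of 30 other genes of the family 11 had 0 reads in every library. The 1 tested, rpk, was at 10.9 ± 3.05 TPM in WT against 10.4 ± 2.63 TPM in mutant libraries (log2 difference −0.06, 95% interval −0.63 to 0.51, limma adjusted p = 0.966).

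Over all family lists, 196 relatives were looked up, 58 had 0 reads in every library and 20 were tested. None of the 20 was called with limma. An unadjusted p under 0.05 was found for 6 of the 20 (DAT, Hn, Pu, nAChRalpha6, CG7589 and CG5250), or 30% against 12.1% of all tested genes, with a median log2 difference of −0.06, the same as over all tested genes. With no filter 138 relatives were tested and none was called, and voom on recovered reads called none of the 20. In order of mean TPM the WT levels ran nAChRbeta3, Or2a, trpl, CCHa1-R, Dh31-R, ppk13, Rdl, nrv3 and Vmat. In the mutant they ran nAChRbeta3, Dh31-R, nrv3, Rdl, Vmat, ppk13, Or2a, CCHa1-R and trpl. In WT, neighbours in the order from Or2a down to Vmat lay within the sum of their SDs of each other, and in the mutant so did those from Dh31-R down to ppk13 and the pair CCHa1-R and trpl. No library was the extreme one throughout: WT replicate 4 was the highest WT library for 4 of the 9, and mutant replicate 1 the highest mutant library for 4.

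The 9 genes lie mostly on chromosome 2, the chromosome that carries CG9005. On arm 2R, at 9753697 (trpl), 13267798 (Dh31-R), 13513132 (Vmat) and 17646848 (CCHa1-R), they stand 1.87, 1.65, 1.89 and 6.03 Mb from CG9005. On 2L, ppk13 starts at 21086790 and nrv3 at 21380000, with nAChRbeta3 at the other end of the arm. Rdl is on 3L (9145838 to 9182149) and Or2a on X (2246231 to 2247567). Thus 7 of 9 are on chromosome 2, which holds 38.2% of the tested genes and 92 of the 131 called genes. Chromosomes 3, 4 and X hold 61.0% and 37. The remaining tested genes, the called CG30456 and LKRSDH among them, had no position in the annotation used. The 9 were chosen for differing between the genotypes, so the called genes are the closer comparison. Of the tested genes of chromosome 2, 3.08% were called, against 0.776% on chromosomes 3, 4 and X. Effects of the mutation and of other differences between the chromosomes of both stocks cannot be told apart.

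The nearest tested gene on each side of the 9 gave 18 neighbours, of which 2 were called with limma. Over all tested genes 1.67% were called, and 3.08% of those on chromosome 2. CG33509, 283 bases from ppk13 on the same strand, was at 2.49 ± 1.71 TPM in WT against 18.7 ± 3.08 TPM in mutant libraries (log2 difference 2.62, 95% interval 1.84 to 3.4, limma adjusted p = 0.00291). CG10936, 7709 bases from CCHa1-R, fell from 5.63 ± 1.23 to 0.200 ± 0.214 TPM (log2 difference −2.46, 95% interval −3.15 to −1.78, limma adjusted p = 0.00198). Each had the sign of the member beside it. The other 16 neighbours were not called, close ones among them. On the other side of CCHa1-R, eIF3c, a translation initiation factor at 609 bases, was at 218 ± 14.2 and 198 ± 19.0 TPM (limma adjusted p = 0.708). mip120, 19 bases from Vmat, was at 11.2 ± 3.30 and 9.34 ± 2.60 TPM (limma adjusted p = 0.811), and crn and fs(1)K10, 26 and 189 bases from Or2a, had limma adjusted p = 0.654 and 0.762. Spp, a signal peptide peptidase 475 bases from nAChRbeta3, was at 186 TPM in both groups (SD 19.8 and 14.4, limma adjusted p = 0.999). Tspo, on the other side of nAChRbeta3, had the opposite sign with no overlap (20.2 ± 9.10 and 49.7 ± 6.01 TPM, limma adjusted p = 0.0737). Both neighbours of trpl, dap and CG1648, also had the opposite sign to their member, with overlap. dap was at 55.3 ± 13.8 and 85.4 ± 14.9 TPM and CG1648 at 4.15 ± 1.10 and 11.2 ± 6.37 TPM (limma adjusted p = 0.205 and 0.350). Tspo, dap and CG1648 were the only uncalled neighbours with an unadjusted p under 0.05. CG13330 lies within Vmat on the opposite strand and shares 2129 of the 8134 exon bases of Vmat. It was at 2.73 ± 3.79 TPM in WT against 1.54 ± 2.06 TPM in mutant libraries (limma adjusted p = 0.887).

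**Figure D3:**
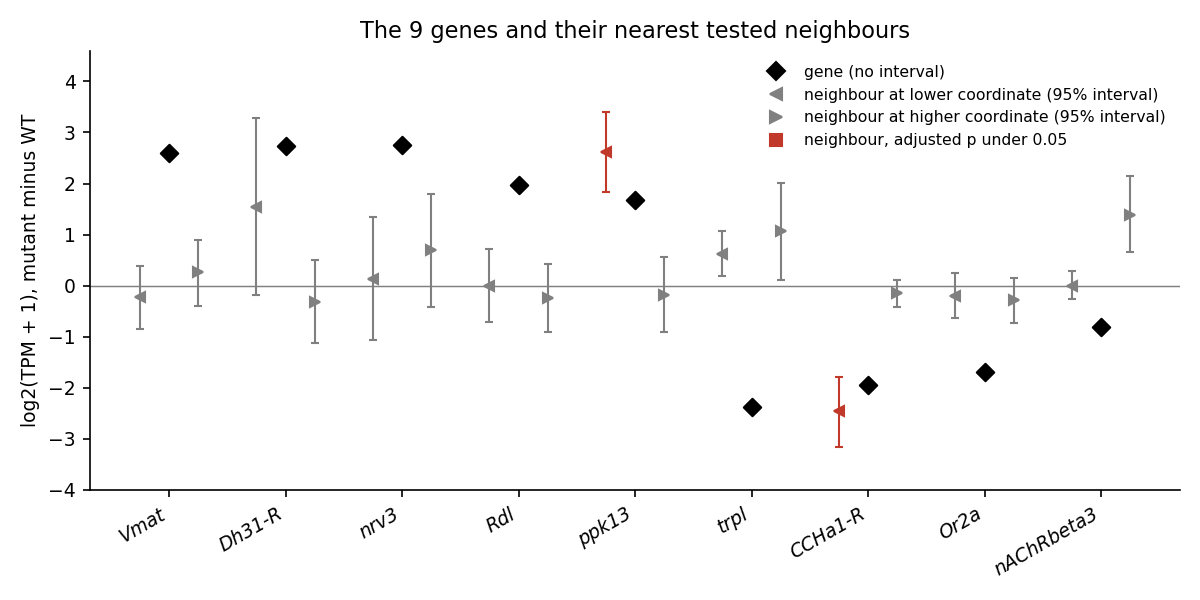
Difference in log2(TPM + 1), mutant minus WT, of each of the 9 genes (black diamonds, no interval, since they were chosen for it) and of the nearest tested gene on each side (triangles with 95% intervals from limma; red where the adjusted p is under 0.05). Of 18 neighbours 2 are red, CG33509 beside ppk13 at 2.62 and CG10936 beside CCHa1-R at −2.46, while 1.67% of all tested genes were called.

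Genes with the most similar pattern over the 8 libraries were found by Pearson's r on log2(TPM + 1), which the genotype difference dominates. Such genes are a description, since all share these libraries. For ppk13 it was HIP-R on X (r = 0.996, 3.04 TPM in WT, against 15.9 TPM in mutant libraries), for nAChRbeta3 oaf (0.986, 30.8 and 16.2 TPM), and for CCHa1-R CG30456 (0.986, 4.91 and 0.114 TPM). kek2, a leucine-rich repeat membrane protein, was nearest to Vmat (r = 0.984, 0.422 and 2.85 TPM), and tey to Rdl (0.980, 5.25 and 46.7 TPM). For nrv3 it was 7B2, a chaperone of a neuropeptide-processing protease (0.979, 0.0681 and 1.77 TPM), for trpl OS9 (0.983, 6.39 and 0 TPM), for Dh31-R CG31710 (0.969, 102 and 247 TPM) and for Or2a CG9657 (0.960, 4.70 and 0.224 TPM). The second nearest were CG30491, Tango11, LKRSDH, CR45258, CG13044, CG2145, CG10936, CR45835 and CG3609, with r between 0.953 and 0.979 (in the same order of members). tey and CG13044 lie on 3L, as Rdl does, and CG10936, the neighbour of CCHa1-R, was the second nearest to trpl. With the group means taken out, r ranged from 0.275 (trpl and CG10936) to 0.947 (ppk13 and HIP-R).

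Markers of cell types were measured in the same libraries. Of 15 macrophage markers 12 were tested, and their summed level was 6300 to 10366 TPM in WT, against 8063 to 9582 TPM in mutant libraries. NimC4, an engulfment receptor, was at 5897 ± 1646 and 6181 ± 872 TPM, and srp, the GATA factor of the blood lineage, at 15.0 to 38.6 and 23.2 to 28.9 TPM. He, NimC1 and Hml, markers of later blood cells, were at or near 0 in most libraries. Of the 12 tested, 5 were above 0 and 7 below, as 4563 of all 7827 tested genes were. With limma 1 of the 12 was called, against 1.67% of all tested genes. An unadjusted p under 0.05 was found for 3 (25% against 12.1% of all tested genes). Sr-CI, a scavenger receptor, was the 1 called marker (394 ± 20.7 and 739 ± 29.1 TPM, limma adjusted p = 0.000818). The others were Glt, a secreted glutactin (38.4 ± 21.1 and 105 ± 80.6 TPM, limma adjusted p = 0.348), and Ppn, the matrix protein papilin (323 ± 29.4 and 251 ± 36.9 TPM, limma adjusted p = 0.285). The 16 neuron markers summed to 141 to 245 TPM in WT, against 139 to 188 TPM in mutant libraries, mostly from elav (51.4 ± 12.2 and 55.0 ± 7.02 TPM) and Syx1A (109 ± 32.7 and 85.9 ± 10.6 TPM). Of 7 tested, 5 were above 0 and 2 below, none was called with limma, 3 had an unadjusted p under 0.05 (42.9% against 12.1% of all tested genes), and the median log2 difference was 0.77 against −0.06 over all tested genes.

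Among the tested neuron markers para was the only one whose groups did not overlap. It encodes the voltage-gated sodium channel of neurons and was at 0.287, 0.0811, 0.542 and 0.203 TPM in WT, against 1.90, 3.33, 1.33 and 1.85 TPM in mutant libraries, with no overlap (log2 difference 1.25, 95% interval 0.49 to 2.01, limma adjusted p = 0.125). With limma's voom on recovered reads it was called, the 1 of 7 neuron markers that was (log2 difference 3.22, adjusted p = 0.0173). cpx, fne and nSyb, which act in vesicle fusion or RNA binding in neurons, were at 0.583, 2.98 and 0.836 TPM in WT, against 2.02, 5.65 and 2.13 TPM in mutant libraries (limma adjusted p = 0.364, 0.390 and 0.434). cac, a voltage-gated calcium channel, had the opposite sign, at 2.36 ± 0.802 and 1.23 ± 0.494 TPM (limma adjusted p = 0.535). Of the 5 glia markers 3 were tested and none was called, their sum being 67.0 to 122 and 83.7 to 104 TPM, most of it from moody (87.1 ± 24.1 and 81.3 ± 12.2 TPM). The glial factor repo was at 0.660 ± 0.710 and 0.429 ± 0.449 TPM and below the minimum. Eaat1, a glutamate transporter also below it, was at 0.174 ± 0.202 and 1.21 ± 0.809 TPM with no overlap. All 8 neuroblast markers were tested, 7 were below 0 and none was called (sum 33.0 to 75.7 and 27.0 to 39.6 TPM). Of all 7827 tested genes 4563 were below 0. Only insc had an unadjusted p under 0.05 (12.5% of the list against 12.1% of all tested genes). It was lower in the mutant with no overlap (8.47 ± 2.99 and 4.02 ± 0.742 TPM, limma adjusted p = 0.223). VAChT and VGlut are on both the neuron and the transporter list. VGlut was below the minimum, but its groups did not overlap either. It was at 0, 0, 0.119 and 0 TPM in WT, against 0.578, 0.414, 0.496 and 0.429 TPM in mutant libraries. The part of neuron and glia markers in the levels of the 9 genes was not tested.

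**Figure D4:**
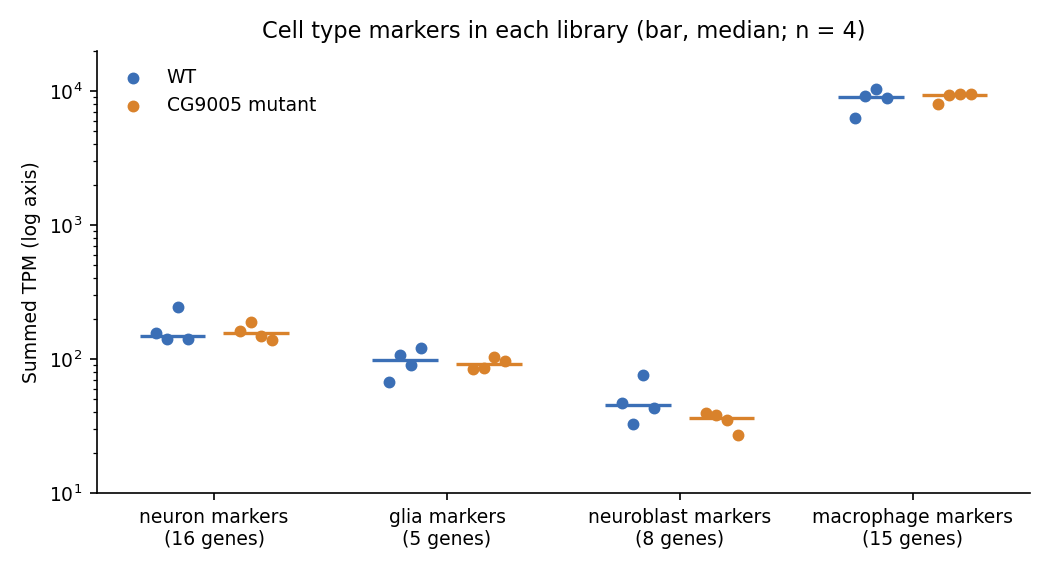
Summed TPM of 4 marker lists in each library on a log axis, with the median as a bar (n = 4 WT in blue, n = 4 CG9005 mutant in orange). Macrophage markers sum to 6300 or more in every library and neuron markers to at most 245, and the groups overlap for every list.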

How the data were processed

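The authors deposited 1 table of TPM per library over 17494 genes, each column summing to 1000000. The submitters' processing notes list build BDGP6, R 3.4.4, limma, edgeR, HTSeq 0.5.4p3 and STAR 2.5.1b, with no role for any of them. The authors' deposited comparison table, present in 4 identical copies, gives log2 fold changes, of which those of the 9 genes were read.

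Groups were taken from the sample titles, since the genotype field reads alike in both. The stage field counts up from 11 to 18 from library to library. The growth protocol names stage 11 only, which is used here. TPM times union exon length (Ensembl release 115) was a whole number of steps per library, within 0.05 reads, for 98.9% to 99.1% of genes above 0 with a length, which gave the reads per library. The main test ran limma 3.58.1 in R 4.3.3 with its trend option. It used log2(TPM + 1) of genes that reached 1 TPM in 4 or more of the 8 libraries, and genes were called at a Benjamini-Hochberg adjusted p under 0.05. On simulated data with 7827 genes and normal noise, 88.0% of genes moved by 2 on the log2 scale and 43.0% of those moved by 1 were called. Another 5 genes that were not moved were called. The moved genes all had a mean log2(TPM + 1) above 2. The shares therefore do not cover genes with lower means, such as Vmat, trpl, CCHa1-R, DAT and most of the tested relatives with few reads. Whether each replicate was its own collection of embryos is not stated, and the spread behind the p-values may be technical. limma's intervals rest on the spread between libraries. The exact intervals of read ratios and the floors (3 reads) cover counting error only.

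The 9 genes and all lists were chosen with earlier results of these data known. The rule for other names takes up to 3 relatives per list with the smallest p, the nearest tested gene on each side, the 2 genes per member with the highest r, and all markers. Partners outside that rule, such as Atpalpha, nrv1, ple, Trh, Ddc, Tbh, Tdc1, Tdc2, SerT, Dh31, CCHa1, CCHa2-R, Lcch3, Grd, trp, Trpgamma, Orco, nAChRalpha1 and nAChRbeta1, and the genes that overlap a member were named after their values were seen. CG3701 of the pump list was not matched. The alternatives were other filters, pseudocounts, scalings and variance models, a replicate block, the label stage, voom and each library left out.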

Additional observations from a re-analysis of the deposited data

Results flagged for a closer look

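In 3 of the 18 groups of 4 libraries looked at (2 groups for each of the 9 genes), 1 library stood apart from the other 3 by more of the group's range than Dixon's 95% critical value allows. Chance does this in about 1 group in 20 for measured values without ties. Dh31-R in WT replicate 4 was at 2.68 TPM (109 reads), above the other WT libraries at 0.589 to 0.806 TPM and below the lowest mutant library at 8.69 TPM. trpl in mutant replicate 4, at 0.0184 TPM, and CCHa1-R in mutant replicate 1, at 0.0293 TPM, each rest on 1 read beside 3 libraries with none, where any single read stands apart by construction.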

How the results depend on the processing

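The sign of the difference of each of the 9 genes was kept in every setting that tested it. The log2 difference ranged from 2.34 to 6.28 for Vmat, 1.97 to 3.74 for Dh31-R, 2.41 to 4.78 for nrv3, 1.74 to 2.93 for Rdl, 1.10 to 2.55 for ppk13, −8.30 to −2.25 for trpl, −7.21 to −1.66 for CCHa1-R, −2.55 to −1.47 for Or2a and −0.89 to −0.75 for nAChRbeta3. The largest size came from voom for all but Rdl (label stage) and nAChRbeta3 (without mutant replicate 1). Of 131 calls over all genes, 82 were left with a minimum of 5 TPM, 76 with no filter, 9 with the label stage and 71 to 110 without 1 library. Of the 9 genes, 3 of the 4 still tested were called at the 5 TPM minimum, 0 with the label stage, 4 with voom and 5 to 8 without 1 library. The label stage runs from 11 to 14 in WT and 15 to 18 in the mutant, so it follows genotype closely. With the replicate block 52 genes and 4 of the 9 were called. Same-numbered libraries had correlations of deviations of −0.146 to 0.0770, so they shared little deviation over all tested genes. Whether they were collected or prepared together is not stated, and these correlations cannot tell. Of the relatives, 1 was called with array weights and 0 to 1 without 1 library. The median of all genes was −0.06, 0.00 with median centring and −0.18 with the label stage. Members under about 100 reads in a group, such as Vmat and ppk13 in WT and Or2a in the mutant, are limited by depth.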
